A study of Mus musculus with 8 samples.

Results

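The solute carriers are the membrane proteins that move sugars, amino acids, peptides, ions, vitamins, nucleosides and metals across the cell surface and the membranes of organelles. The genes described here are those whose symbol on the array starts with Slc or Slco followed by a family number, with Slc26a3, Slc10a2, Slc51a and Slc51b left out. They were chosen by their detection p-value, the share of the array's negative control beads that were at least as bright as the probe: it had to lie under 0.01 on both arrays of at least 1 of the 4 groups. Of 328 such genes on the array 185 met this rule, among 8607 genes of all kinds that met it. The 4 groups, each of 2 arrays, were mouse colon with Nanog overexpression, mouse colon without it, mouse intestine with Nanog overexpression and mouse intestine without it. Nanog is a homeobox transcription factor best known for holding embryonic stem cells in the pluripotent state. The design text calls the arrays of a group biological replicates, and each array was made from 300 ng of total RNA. No source used here gives the strain, age or sex of the mice, the construct and promoter that drove Nanog or the length of its expression. The p-values below measure the spread between these samples.

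An absorptive cell of the small intestine takes up sugars, amino acids and ions through carriers in its brush border, many of them driven by the inward gradient of sodium, and passes them to the blood through other carriers in its basolateral membrane. The colon absorbs mainly salt, water and short-chain fatty acids and carries few of the nutrient carriers of the small intestine. Other solute carriers sit in mitochondria, in the Golgi apparatus (the carriers of nucleotide sugars) or in vesicles, and serve cells of every kind.

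Of the 185 genes, 123 (66.5%) were above background (detection p under 0.01) on all 8 arrays, against 77.2% of all genes tested. Some of the rest split by tissue: 12 genes were above background on both arrays of an intestine group and on no colon array, and 5 on both arrays of a colon group and on no intestine array. The 12 were Slc2a2, Slc2a5, Slc5a4a, Slc5a4b, Slc5a11, Slc6a20a, Slc7a15, Slc43a2, Slc26a6, Slc28a1, Slc28a2 and Slc22a4, and the 5 were Slc7a10, Slc26a4, Slc27a6, Slc29a4 and Slc37a2. These patterns come from the detection p-values that chose the genes, and genes that passed through 1 group alone had to differ between groups. Just inside the limit lay Slc27a6 and Slc1a6, each at a detection p of 0.007519 in its best group, and just outside it Slc25a13 and Slc6a20b at 0.010025. By substrate, the 185 held 30 carriers of amino acids, 27 mitochondrial carriers, 18 of sugars, 17 of nucleotide sugars, 15 of organic ions and drugs, 14 of zinc and 14 of vitamins, choline and haem, with the rest in smaller families. Genes were placed by their family number, with a few single-gene exceptions, so the name of a family need not be the substrate of each member. Among well-known gut carriers on the array, 8 did not meet the rule, Slc15a1, Slc6a14, Slc1a5, Slc16a1, Slc16a3, Slc4a4, Slc19a3 and Slc23a1.

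The tissue labels were checked against marker genes. The mean normalized log2 intensity of 8 small intestinal enterocyte genes ran from 5.27 to 5.97 over the 4 colon arrays and from 11.76 to 12.90 over the 4 intestine arrays, and that of 8 genes of colon epithelium from 9.27 to 10.37 in colon and from 6.42 to 6.81 in intestine. Of the 8 genes of colon epithelium, 4 were higher in colon in each comparison made below, and 1, Ang4, was lower with Nanog. Ang4 had a colon minus intestine difference of −2.71 without Nanog and −5.68 with it, and Mettl7b 0.15 and −1.32. Pancreatic acinar genes stood apart by array. The mean of 16 such genes was 8.11 and 13.65 in colon with Nanog, 5.86 and 7.73 in colon without Nanog, 5.63 and 14.25 in intestine with Nanog, and 5.45 and 10.20 in intestine without Nanog, replicate 1 first in each group. The probe for Nanog was below background on all 8 arrays, so these probes give no check of the Nanog labels. Between the replicates of a group, the log2 values of the 185 genes correlated across genes with r of 0.978 in colon with Nanog, 0.975 in colon without Nanog, 0.873 in intestine with Nanog and 0.763 in intestine without Nanog. The intestine replicates thus differed more, and the median replicate SD of a solute carrier was 0.157, 0.198, 0.291 and 0.474 log2 units in the same order of groups.

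The promoters of 7 of the genes described below are shown first: 4 genes lower in colon than in intestine, whose windows hold letters of motifs bound by gut transcription factors, and the 3 genes that changed with Nanog. RefSeq windows on build GRCm38.p6 were matched by gene identifier for 149 of the 185 genes (202 windows), and the 250 bases before each start were searched on both strands for the core letters of motifs of 5 factors. HNF1, a factor of gut, liver and kidney epithelium, was searched as GTTAAT. HNF4, active in the absorptive cell, was searched as AAAGTCCA. CDX2, which sets intestinal identity, was searched as TTTATNG. The letters for the GATA factors of the proximal gut were AGATAA. The letters for the NANOG protein itself were TAATGG. Capitals mark the letters of a match.
Slc6a20a: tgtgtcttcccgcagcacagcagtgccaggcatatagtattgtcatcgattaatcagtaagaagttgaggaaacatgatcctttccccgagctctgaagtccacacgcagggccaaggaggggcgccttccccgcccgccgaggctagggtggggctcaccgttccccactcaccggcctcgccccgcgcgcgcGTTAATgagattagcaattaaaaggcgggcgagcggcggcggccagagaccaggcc
Slc7a15: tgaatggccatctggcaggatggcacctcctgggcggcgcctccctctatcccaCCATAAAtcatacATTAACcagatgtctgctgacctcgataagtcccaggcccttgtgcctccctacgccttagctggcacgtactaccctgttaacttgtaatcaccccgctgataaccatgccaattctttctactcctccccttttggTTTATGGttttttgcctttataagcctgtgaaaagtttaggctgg
Slc28a2: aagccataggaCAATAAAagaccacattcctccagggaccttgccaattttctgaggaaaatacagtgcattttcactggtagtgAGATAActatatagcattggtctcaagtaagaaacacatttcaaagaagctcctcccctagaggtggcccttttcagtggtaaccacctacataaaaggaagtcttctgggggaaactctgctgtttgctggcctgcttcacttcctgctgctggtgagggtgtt
Slc39a5: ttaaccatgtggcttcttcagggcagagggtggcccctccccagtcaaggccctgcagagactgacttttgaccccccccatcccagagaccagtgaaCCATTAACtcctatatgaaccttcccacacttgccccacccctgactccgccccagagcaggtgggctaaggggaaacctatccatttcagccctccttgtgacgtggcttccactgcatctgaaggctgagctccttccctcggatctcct
Slco4a1: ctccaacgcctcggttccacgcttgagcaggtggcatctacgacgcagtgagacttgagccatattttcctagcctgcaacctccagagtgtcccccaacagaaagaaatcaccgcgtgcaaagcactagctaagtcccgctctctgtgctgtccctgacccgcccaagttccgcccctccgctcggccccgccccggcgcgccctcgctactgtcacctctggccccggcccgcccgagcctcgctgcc
Slc10a6: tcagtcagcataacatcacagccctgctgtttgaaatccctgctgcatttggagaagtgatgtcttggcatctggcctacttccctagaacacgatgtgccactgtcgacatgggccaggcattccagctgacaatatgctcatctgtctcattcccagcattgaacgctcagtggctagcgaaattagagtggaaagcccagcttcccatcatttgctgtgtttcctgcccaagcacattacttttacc
Slc25a30: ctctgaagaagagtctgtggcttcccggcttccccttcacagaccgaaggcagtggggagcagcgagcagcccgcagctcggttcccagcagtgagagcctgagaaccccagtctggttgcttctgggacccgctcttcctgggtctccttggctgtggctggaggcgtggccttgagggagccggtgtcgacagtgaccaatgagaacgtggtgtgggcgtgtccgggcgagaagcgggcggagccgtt
The windows lie at chr9:123678833-123679082 (Slc6a20a, minus strand), chr12:8599067-8599316 (Slc7a15, minus strand), chr2:122426185-122426434 (Slc28a2, plus strand), chr10:128400467-128400716 (Slc39a5, minus strand), chr2:180455995-180456244 (Slco4a1, plus strand), chr5:103629404-103629653 (Slc10a6, minus strand) and chr14:75787038-75787287 (Slc25a30, minus strand), each written 5′ to 3′ on the gene's strand. Slc7a15, Slc39a5 and Slco4a1 have 2 windows each, of which 1 is shown. The HNF1 core of Slc6a20a begins 56 bases before the start. Slc7a15 holds an HNF1 core 183 bases before the start and CDX2 cores at 196 and 45 bases, Slc28a2 a CDX2 core at 239 and a GATA core at 165 bases, and in Slc39a5 the HNF1 core at 150 bases overlaps a NANOG core at 152 bases.

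Over all 32851 windows of that length, 6.43% held the HNF1 core, 1.01% the HNF4 core, 9.81% the CDX2 core, 9.99% the GATA core and 6.57% the NANOG core. Over the 43 windows of the genes lower in colon in either comparison below, the shares were 9.3%, 0%, 6.98%, 9.3% and 9.3% in the same order of motifs. Those shares rest on 4, 0, 3, 4 and 4 windows, near what all promoters hold. The 4 windows of the 3 genes that changed with Nanog held none of the 5 motifs.

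Colon and intestine were compared separately in mice with and without Nanog, to ask which carriers mark each tissue. With Nanog, 5 solute carriers were higher and 24 lower in colon (limma's moderated test, Benjamini-Hochberg adjusted p under 0.05 over all 8607 genes), where 3.18% of all genes tested were higher and 3.46% lower. Without Nanog, 9 were higher and 26 lower, against 2.44% and 3.06% of all genes tested. The calls thus fell on the lower side for 13% and 14.1% of the solute carriers, and the higher side for 2.7% and 4.86%. The median colon minus intestine difference of the 185 was −0.12 with Nanog and −0.15 without, on the log2 scale, beside 0.10 and 0.11 over all genes tested. Among the 135 solute carriers above background on all 4 arrays compared, 4 were higher and 13 lower with Nanog, and 6 higher and 12 lower without it. With each array scaled to a common median in place of quantile normalization, which moves the median of all genes to 0.40 with Nanog and 0.02 without, the split of the calls was 7 higher and 14 lower with Nanog, and 5 higher and 22 lower without.

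The 2 comparisons use different arrays. In both, 16 genes were lower in colon, 66.7% of the 24 with Nanog and 61.5% of the 26 without, and 4 were higher in both, 80% of the 5 and 44.4% of the 9. Of the 35 calls without Nanog 4 (Slc2a5, Slc6a20a, Slc28a2 and Slc7a10) are of genes that met the detection rule through 1 group alone, which fixed their direction, and with Nanog 0 of the 29 are of this kind. Genes that met the rule through groups of 1 tissue alone also had their direction favoured by it. Among them, Slc2a2, Slc5a4b, Slc7a15, Slc26a6, Slc28a1 and Slc22a4 were above background on no colon array and lower in both comparisons. Slc6a19, Slc27a2 and Slc47a1 met it through intestine groups alone, and Slc2a13 and Slc26a2 through colon groups alone. Of the 44 genes called in either comparison 43 had the same sign in both, as had 144 of all 185. These overlaps and signs were not counted over all genes tested, so they cannot be read as particular to solute carriers. Whether the tissue difference itself changed with Nanog was tested by the interaction, which called no solute carrier in limma (0 of 185, with 12 at an unadjusted p under 0.05 and 0% of all genes tested called higher or lower).

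**Figure D1:**
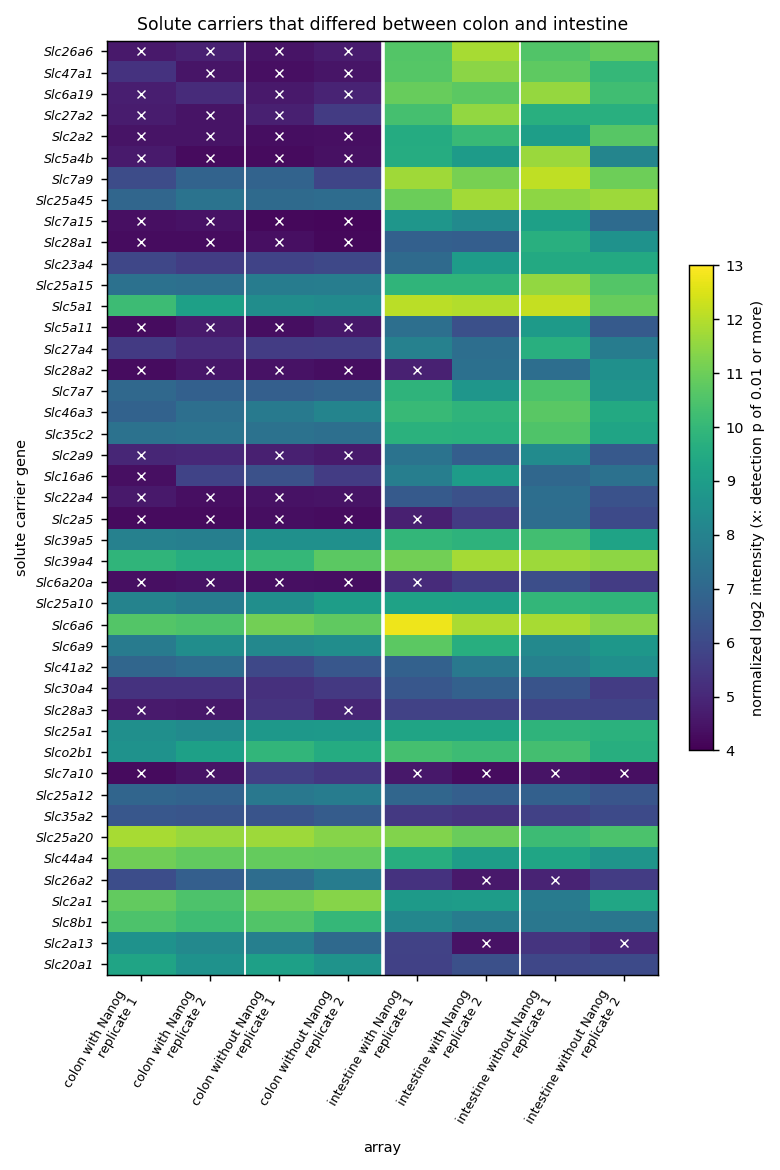
Normalized log2 intensity (colour) of the 44 solute carriers past the adjusted p threshold in colon against intestine with or without Nanog, 1 column per array and 1 row per gene ordered by the mean of both differences; a cross marks a detection p of 0.01 or more. The 4 colon columns are dark and the 4 intestine columns bright for most rows, and the bottom 10 rows, from Slc7a10 to Slc20a1, run the other way.

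Of 18 sugar carriers 1 was higher and 3 were lower in colon with Nanog, and 2 were higher and 6 lower without. Slc2a2 encodes GLUT2, the low-affinity carrier that lets glucose and fructose leave the enterocyte. Its normalized log2 intensity was 4.47 and 4.47 in colon with Nanog and 4.32 and 4.39 in colon without Nanog, below background on all 4 arrays, and 9.55 and 10.09 in intestine with Nanog and 9.03 and 10.68 in intestine without Nanog. No colon array reached any intestine array. By the group means on this probe, Slc2a2 was at least 27.4-fold lower in colon with Nanog (limma's adjusted p = 0.00168) and at least 28.9-fold lower without it (adjusted p = 0.00156). Further probes for Slc2a2, above background on 4 arrays each, gave smaller log2 differences. These were −2.87 with Nanog and −2.76 without for 1 probe, and −2.40 and −2.76 for another. Slc5a1 encodes SGLT1, the sodium-driven carrier of glucose and galactose in the brush border, and was seen on every array. Its log2 intensity was 10.16 and 9.13 in colon with Nanog and 8.40 and 8.31 in colon without Nanog, against 12.08 and 11.95 in intestine with Nanog and 12.22 and 10.90 in intestine without Nanog. The tissues did not overlap, and the difference was −2.37 ± 0.49 (SE) with Nanog (adjusted p = 0.0350) and −3.21 ± 0.49 without (adjusted p = 0.0135).

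Slc5a4b, a mouse gene of the SGLT3 branch of the same family, was below background on the 4 colon arrays and at 9.57 and 8.95 in intestine with Nanog and 11.65 and 8.10 in intestine without Nanog. By the means of the intestine groups, Slc5a4b was at least 18.6-fold lower in colon with Nanog (adjusted p = 0.0347) and 29.3-fold lower without (adjusted p = 0.0237). Slc5a4a is a close copy of it, so the signal of each is uncertain to the extent that a probe takes up RNA of the other. The urate carrier Slc2a9 and Slc5a11, a sodium-driven carrier of myo-inositol, fell in colon without Nanog, by at least 5.39-fold and 6.61-fold (adjusted p = 0.04 and 0.0490). The fructose carrier Slc2a5 was at least 3.07-fold lower in colon without Nanog, but met the detection rule only through intestine without Nanog, so its direction is set by that rule.

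Sugar carriers that were higher in colon included Slc2a13, the proton-driven carrier of myo-inositol, and Slc2a1, which encodes GLUT1, the basal glucose carrier of many cell types. Slc2a13 measured 8.59 and 8.23 in colon with Nanog against 5.76 and 4.43 in intestine with Nanog, and 7.87 and 7.09 in colon without Nanog against 5.37 and 5.03 in intestine without it. The tissues did not overlap, and the difference was 3.31 ± 0.47 with Nanog (adjusted p = 0.00973) and 2.28 ± 0.47 without (adjusted p = 0.0399), with 1 of 2 arrays above background in each intestine group. Slc2a1 differed by 1.72 ± 0.47 with Nanog (adjusted p = 0.0848) and rose by 2.69 ± 0.47 in colon without Nanog (adjusted p = 0.0231).

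Of 30 amino acid carriers, 5 were lower and none higher in colon with Nanog, and 5 lower and 1 higher without. Slc6a19 encodes B0AT1, the main sodium-driven carrier of neutral amino acids in the small intestinal brush border. It measured 4.74 and 5.10 in colon with Nanog and 4.63 and 4.88 in colon without Nanog, above background on 1 of those 4 arrays, against 10.92 and 10.72 in intestine with Nanog and 11.57 and 10.24 in intestine without Nanog. The difference was −5.90 ± 0.43 with Nanog (adjusted p = 0.000537), and without Nanog Slc6a19 was at least 59.9-fold lower (adjusted p = 0.000441). Slc7a9, the light chain of the brush border exchanger of cystine and basic amino acids, measured 6.08 and 6.87 in colon with Nanog and 6.87 and 5.88 in colon without Nanog, against 11.73 and 11.14 in intestine with Nanog and 12.16 and 11.02 in intestine without Nanog. The difference was −4.96 ± 0.51 with Nanog (adjusted p = 0.00251) and −5.21 ± 0.51 without (adjusted p = 0.00204). Its 2 further probes on the array had the same sign but unlike sizes. The probe above background on 7 arrays gave −5.00 with Nanog and −5.23 without, and that on 4 arrays −2.14 and −1.87.

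Slc7a15 was below background on every colon array and at least 11.1-fold lower with Nanog and 8.8-fold lower without. The glycine carrier Slc6a9 and the taurine carrier Slc6a6 were lower in colon with Nanog, with differences of −2.11 ± 0.42 and −1.77 ± 0.35, and their differences without Nanog were −0.22 and −0.66, not past the threshold. Slc7a7, the basolateral exchanger of basic for neutral amino acids, and the imino acid carrier Slc6a20a were lower without Nanog, with a difference of −2.76 ± 0.61 and a fold of at least 1.85, Slc6a20a having met the detection rule only through intestine without Nanog. Slc7a10 was at least 1.32-fold higher in colon without Nanog, the 1 group through which it met the detection rule, so its direction is set by that rule. It stood at 5.72 and 5.45 in colon without Nanog against 4.46 and 4.38 in intestine without Nanog, while in colon with Nanog it was below background on both arrays, at 4.27 and 4.48. The heavy chain Slc3a2, which carries Slc7a7 and its relatives to the membrane, differed by −1.83 with Nanog and −1.76 without (adjusted p = 0.103 and 0.125).

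Among ion carriers, Slc26a6, an apical exchanger of chloride for bicarbonate and oxalate, was below background in colon. Its log2 intensity was 4.63 and 4.83 in colon with Nanog and 4.48 and 4.69 in colon without Nanog, against 10.60 and 11.83 in intestine with Nanog and 10.56 and 10.86 in intestine without Nanog. It was at least 72.3-fold lower in colon with Nanog (adjusted p = 0.000292) and 52.2-fold lower without (adjusted p = 0.000352). The sulfate carrier Slc26a2 ran the other way, higher by 2.26 ± 0.39 in colon without Nanog (adjusted p = 0.0225) and different by 1.45 ± 0.39 with Nanog (adjusted p = 0.0818), with 1 of 2 arrays above background in each intestine group.

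Slc20a1, which encodes the sodium-driven phosphate carrier PiT1, was the phosphate carrier called. It measured 9.24 and 8.60 in colon with Nanog against 5.75 and 6.19 in intestine with Nanog, and 9.10 and 8.63 in colon without Nanog against 5.92 and 6.04 in intestine without Nanog. The replicates lay close together and the tissues apart, with a rise in colon of 2.95 ± 0.31 with Nanog (adjusted p = 0.00276) and 2.89 ± 0.31 without (adjusted p = 0.00305). Slc8b1, the mitochondrial exchanger of sodium for calcium, was higher in colon by 2.39 ± 0.28 (adjusted p = 0.00437) and 2.73 ± 0.28 (adjusted p = 0.00228), at 10.50 and 10.21 in colon with Nanog against 8.17 and 7.76 in intestine with Nanog. Of the 5 cation-chloride cotransporters 0 were called in either comparison in limma, with 1 at an unadjusted p under 0.05 in each. Slc12a2, the basolateral sodium, potassium and chloride carrier of secreting cells, differed by 0.76 ± 0.41 with Nanog and 0.03 ± 0.41 without (adjusted p = 0.330 and 0.979).

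Of 6 nucleoside carriers 2 were lower in colon with Nanog and 2 without, and of 15 carriers of organic ions and drugs 3 were lower with Nanog and 2 without, with 0 higher in either family. Slc28a1, which takes up pyrimidine nucleosides with sodium, did not exceed background on any colon array and stood at 6.77 and 6.69 in intestine with Nanog and 9.66 and 8.58 in intestine without it. It was at least 3.23-fold lower in colon with Nanog (adjusted p = 0.0102) and 17.4-fold lower without (adjusted p = 0.000497). The purine carrier Slc28a2, which met the detection rule only through intestine without Nanog, was at least 7.44-fold lower in colon without Nanog and Slc28a3, of broader range, at least 1.67-fold lower with Nanog, and the 3 equilibrative carriers Slc29a1, Slc29a3 and Slc29a4 were not called. Slc47a1 encodes MATE1, an exporter of organic cations in exchange for protons. It measured 5.33 and 4.52 in colon with Nanog and 4.36 and 4.51 in colon without Nanog, against 10.64 and 11.43 in intestine with Nanog and 10.76 and 10.002 in intestine without it, with a difference of −6.11 ± 0.41 with Nanog (adjusted p = 0.000406) and at least 41.6-fold without (adjusted p = 0.000445). In colon with Nanog 1 of its 2 arrays was below background. The carnitine carrier Slc22a5 differed by −1.20 with Nanog and −1.47 without (adjusted p = 0.0862 and 0.0526), not past the threshold. The ergothioneine carrier Slc22a4 was at least 2.58-fold lower with Nanog and 3.42-fold lower without, and the organic anion carrier Slco2b1 was lower with Nanog, with a difference of −1.41 ± 0.32. Slc16a6, of the carboxylate family, was lower in colon with Nanog, with a difference of −3.31 (adjusted p = 0.0194). Without Nanog it differed by −1.28, not past the threshold. Further probes for Slc16a6 gave −1.62 and −2.66 with Nanog, and −0.55 and −1.02 without.

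Of 5 fatty acid carriers 1 was lower in colon with Nanog and 2 without. Slc27a2, an acyl-CoA synthetase that promotes uptake of long-chain fatty acids, measured 4.68 and 4.46 in colon with Nanog and 4.78 and 5.55 in colon without Nanog, against 10.34 and 11.52 in intestine with Nanog and 9.68 and 9.67 in intestine without Nanog. It was at least 59.3-fold lower in colon with Nanog (adjusted p = 0.000406) and differed by −4.52 ± 0.43 without (adjusted p = 0.00189), with 1 of 2 arrays of colon without Nanog above background. Its relative Slc27a4, the main such protein of the enterocyte, was lower without Nanog, with a difference of −3.11 ± 0.58 (adjusted p = 0.0267), and differed by −2.26 ± 0.58 with Nanog (adjusted p = 0.0675). Of the 27 mitochondrial carriers, 3 were lower with Nanog, and 4 lower and 2 higher without. Slc25a45 was seen on every array and measured 6.97 and 7.43 in colon with Nanog and 7.09 and 7.17 in colon without Nanog, against 10.96 and 11.75 in intestine with Nanog and 11.46 and 11.69 in intestine without Nanog, a difference of −4.16 ± 0.32 and −4.44 ± 0.32 (adjusted p = 0.000665 and 0.000480). The ornithine carrier Slc25a15 was lower in both, with differences of −2.55 ± 0.31 with Nanog and −3.27 ± 0.31 without, and the dicarboxylate carrier Slc25a10 with −1.25 ± 0.25 and −1.19 ± 0.25. The carnitine and acylcarnitine carrier Slc25a20 and the aspartate and glutamate carrier Slc25a12 were higher in colon without Nanog, by 1.23 ± 0.25 and 1.12 ± 0.24. The adenine nucleotide carrier Slc25a5 and the phosphate carrier Slc25a3 of mitochondria lay between 12.46 and 14.01 on every array and were not called.

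Of 14 zinc carriers, 3 were lower in colon with Nanog and 0 were called without it (limma, with 3 at an unadjusted p under 0.05). Slc39a4, which takes up dietary zinc, measured 9.88 and 9.61 in colon with Nanog against 11.07 and 11.79 in intestine with Nanog, a difference of −1.69 ± 0.35 (adjusted p = 0.0357), and differed by −1.21 ± 0.35 without Nanog (adjusted p = 0.106). A second probe for Slc39a4, above background on 7 arrays, gave −0.66 with Nanog and −0.69 without (limma's unadjusted p = 0.356 and 0.338). Slc39a5 and Slc30a4 were lower with Nanog, with differences of −1.98 ± 0.34 and −1.29 ± 0.30, and their differences without Nanog were −1.23 and −0.60. Slc44a4, a choline transporter-like gene known in human cells to take up thiamine pyrophosphate, was the carrier of vitamins and choline higher in colon, by 1.62 ± 0.31 with Nanog (adjusted p = 0.0280) and 1.86 ± 0.31 without (adjusted p = 0.0185). Slc46a3 was lower in colon in both comparisons, with −2.90 ± 0.42 and −2.19 ± 0.42, and Slc23a4 without Nanog, with −3.59 ± 0.55. Of the 17 carriers of nucleotide sugars, Slc35c2 was lower in both comparisons, with −2.31 ± 0.39 and −2.55 ± 0.39, and Slc35a2, which brings UDP-galactose into the Golgi apparatus, was higher in colon with Nanog by 0.98 ± 0.22 (adjusted p = 0.0455).

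**Figure D2:**
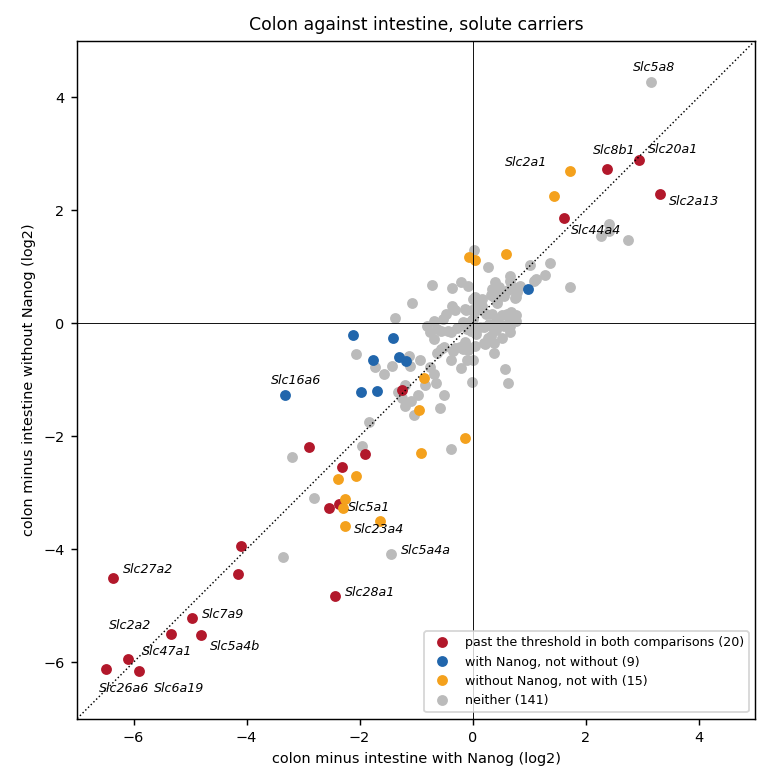
Colon minus intestine difference (log2) of each of the 185 solute carriers with Nanog (horizontal) and without Nanog (vertical), 1 point per gene coloured by the comparisons in which it passed the adjusted p threshold; the dotted line marks equal values. Most of the 20 genes called in both lie near the line at its ends, genes below background in colon are placed by the lowest values the arrays give, and Slc5a8 lies highest on the vertical axis without having passed the test.

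Which calls hold depended on single arrays. With any single array of the 8 left out, 8 of the 29 calls with Nanog remained (Slc6a19, Slc7a9, Slc26a6, Slc27a2, Slc25a45, Slc47a1, Slc20a1 and Slc2a2), and 11 of the 35 without Nanog, the same 8 and Slc25a15, Slc28a1 and Slc8b1. The count with Nanog was lowest, 8, without replicate 1 of colon with Nanog and highest, 46, without either array of intestine without Nanog. The count without Nanog was lowest, 11, without either array of colon without Nanog and highest, 45, without replicate 2 of intestine without Nanog. Over all 8607 genes tested, the calls with a single array left out ran from 132 to 912 with Nanog and from 140 to 779 without. How many calls of all genes remained throughout was not counted. In these whole tissue samples, fewer cells of a type and less RNA per cell cannot be told apart. The enterocyte genes given above moved with the carriers that were lower in colon, and their part in these differences was not tested.

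Proteins that work with the carriers, from a separate list of 38 symbols of which 24 were tested, were compared in the same fit. In colon with Nanog 2 were higher and 6 lower, and without Nanog 3 were higher and 6 lower. The 6 were the same genes in both: the scaffold Pdzk1, which holds brush border carriers in place, the sterol transporters Abcg5 and Abcg8, the efflux pump Abcc2, the water channel Aqp3 and Heph, a ferroxidase that works with the iron exporter. Pdzk1 measured 5.19 and 4.70 in colon with Nanog against 12.63 and 11.37 in intestine with Nanog, a difference of −7.05 ± 0.67 (adjusted p = 0.00170), with 1 of 2 arrays of colon with Nanog above background. The water channel Aqp8 and Arrdc4 were higher in both, Aqp8 by 4.94 ± 0.76 with Nanog and 6.89 ± 0.76 without, with 1 of 2 arrays above background in each intestine group. Txnip, which lowers glucose uptake through GLUT1, rose in colon without Nanog (1.39 ± 0.31, adjusted p = 0.0490) and differed by 0.73 ± 0.31 with Nanog (adjusted p = 0.224), and the difference between the 2 was −0.66 ± 0.44 (adjusted p = 0.998). The sodium pump subunit Atp1b1 differed by 0.66 and 0.03 and was not called. Between Nanog and no Nanog 0 of the 24 were called in colon, in intestine or on average in limma, with 3, 9 and 8 at an unadjusted p under 0.05, or 12.5%, 37.5% and 33.3% beside 12.5%, 8.69% and 16.5% of all genes tested. The list was chosen with earlier results of these data known, so these shares are a description of the list and no test.

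Solute carriers differed between the replicates of intestine more often than all genes did, in the same direction with and without Nanog. In both intestine groups 10 of the 185 were higher by at least 1 log2 unit in replicate 2 than in replicate 1, 14 were lower by as much, and 1 moved in opposite directions. Those 24 make 13% of the solute carriers, beside 3.83% of all genes tested, and in colon 0 of 185 moved so, beside 0.407% of all genes tested. This was seen in the data and is a description with no test. Values are given next for the genes with the largest differences and for vitamin carriers that moved by at least 1 log2 unit. The rest of the 24 were Slc5a4a, Slc36a1, Slc6a4, Slc41a3, Slc7a7, Slc43a2, Slco3a1 and Slc5a11, lower in replicate 2, and Slc25a47, Slc28a2, Slc6a12 and Slc1a3, higher in it.

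Slc5a8, which takes up short-chain fatty acids and lactate with sodium and is known in the colon and the distal small intestine, measured 9.74 and 4.48 in intestine with Nanog and 10.52 and 4.87 in intestine without Nanog, replicate 1 first. Slc34a2, the phosphate carrier NaPi-IIb, which in mice is strongest in the ileum, measured 7.98 and 4.39 with Nanog and 9.35 and 4.29 without. The dicarboxylate carrier Slc13a2 measured 12.56 and 9.74 with Nanog and 13.13 and 8.49 without, and the glutamate carrier Slc1a1 9.64 and 6.55 with Nanog and 9.68 and 6.68 without. All 4 were higher in replicate 1 of both groups.

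Slc46a1, the proton-coupled folate carrier of the proximal small intestine, ran the other way, at 7.09 and 11.72 in intestine with Nanog and 7.41 and 11.37 without. Slc40a1, which encodes ferroportin, the exporter through which duodenal cells pass iron to the blood, measured 8.04 and 11.35 with Nanog and 8.32 and 13.92 without. Slc16a9 measured 5.84 and 10.18 with Nanog and 5.44 and 9.55 without. These 3 were higher in replicate 2 of both groups, as were the vitamin carriers Slc23a2, Slc19a1 and Slc19a2 by at least 1 log2 unit. The vitamin carriers Slc52a3 and Slc5a6 were lower in replicate 2, by −2.31 and −1.62 with Nanog and −1.84 and −1.28 without. The pancreatic acinar genes given above were also high in replicate 2 of both intestine groups, as was the hepatocyte gene tested (5.64 and 12.93 with Nanog, 6.03 and 11.06 without), and their part in these differences was not tested. No source used here says which stretch of intestine each sample came from.

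These genes had wide errors in every comparison, those within colon included, because the fit takes 1 spread per gene from all 4 groups. Slc5a8 differed by 3.15 with Nanog and 4.27 without in colon against intestine (adjusted p = 0.431 and 0.304), at 10.54 and 9.99 in colon with Nanog and 12.14 and 11.79 in colon without Nanog. Slc40a1 differed by 2.41 and 1.76 (adjusted p = 0.484 and 0.633) and Slc46a1 by −0.65 and −1.06 (adjusted p = 0.862 and 0.771). Large differences that missed the threshold are therefore not shown to be absent.

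**Figure D3:**
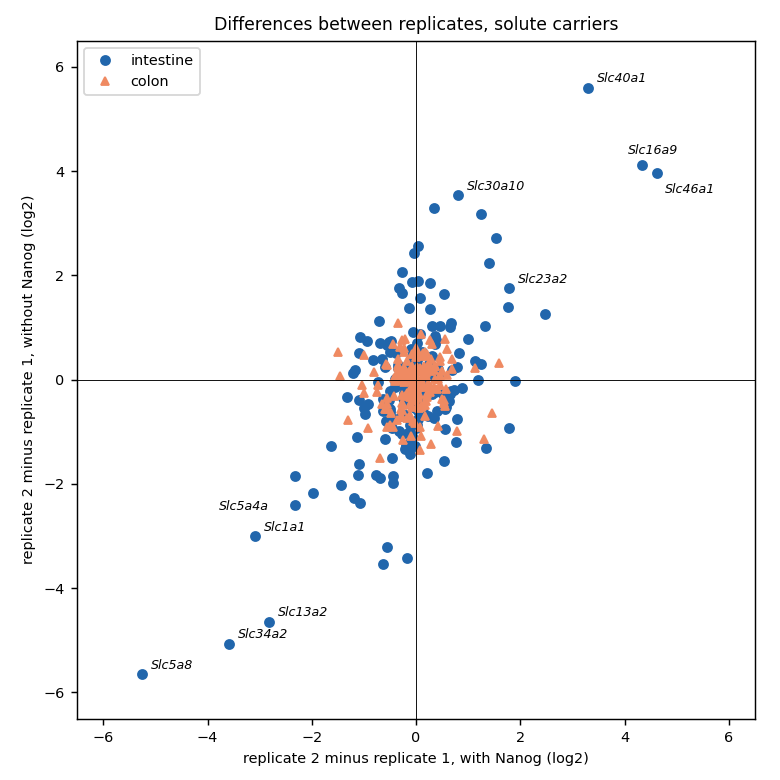
Replicate 2 minus replicate 1 (log2) for each of the 185 solute carriers, in the groups with Nanog (horizontal) and without Nanog (vertical), as circles for intestine and triangles for colon. The colon points gather near 0, and the intestine points spread to the lower left (Slc5a8, Slc34a2) and the upper right (Slc40a1, Slc46a1, Slc16a9).

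Nanog overexpression was compared with its absence in each tissue and on average of the tissues. No solute carrier was called in colon (limma, 0 of 185, with 28 at an unadjusted p under 0.05) or in intestine (0 of 185, with 24), where 0.151% of all genes tested were higher and 0.0697% lower in colon, and 0.139% higher and 0.0232% lower in intestine. On average of the tissues 2 solute carriers rose and 1 fell, beside 0.72% of all genes tested that were higher and 0.476% lower. The shares of the 185, 1.08% and 0.541%, are near those of all genes. The median average difference of the 185 was −0.06 log2 units, beside −0.01 over all genes tested.

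Slco4a1, which encodes a carrier of organic anions and thyroid hormone, fell with Nanog. Its log2 intensity was 4.34 and 4.39 in colon with Nanog, below background on both arrays, against 6.16 and 5.89 in colon without Nanog, and 5.52 and 4.92 in intestine with Nanog, above background on 1 of 2 arrays, against 7.003 and 7.25 in intestine without Nanog. In each tissue both Nanog arrays lay below both arrays without Nanog. The average difference was −1.78 ± 0.19 (limma's adjusted p = 0.0157). In colon the group means put Slco4a1 at least 1.98-fold lower, not past the threshold (adjusted p = 0.0856).

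Slc10a6 encodes a sodium-driven carrier of sulfated steroid hormones. It measured 7.44 and 7.59 in colon with Nanog against 5.74 and 5.99 in colon without Nanog, and 7.44 and 6.26 in intestine with Nanog against 5.02 and 5.20 in intestine without Nanog, where 1 of 2 arrays was above background. All Nanog arrays lay above all arrays without Nanog, and the average rise was 1.69 ± 0.27 (adjusted p = 0.0423). A second probe for the gene gave 0.96 on average, above background on 3 arrays. Slc25a30, a mitochondrial carrier, measured 5.71 and 5.81 in colon with Nanog against 4.99 and 4.86 in colon without Nanog, and 6.04 and 5.70 in intestine with Nanog against 4.58 and 4.80 in intestine without Nanog, below background on both of the last arrays and on 1 of 2 arrays of colon without Nanog. The average rise was 1.01 ± 0.16 (adjusted p = 0.0423), and these groups did not overlap either. In intestine the group means put Slc25a30 at least 1.61-fold higher, not past the threshold (adjusted p = 0.176).

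These 3 calls rested on few arrays and dim values. None of the 3 genes was above background on all 8 arrays. Slco4a1 met the detection rule only through groups without Nanog and Slc25a30 only through groups with Nanog, so the rule favoured their directions. Leaving out any colon array ended the call of Slco4a1 (highest adjusted p = 0.0967), leaving out any colon array or replicate 1 of intestine without Nanog ended that of Slc10a6 (highest 0.191), and that of Slc25a30 remained only without replicate 2 of intestine without Nanog (highest 0.208). Without the second replicate of colon with Nanog and of intestine with Nanog, the arrays highest in pancreatic genes, the adjusted p was 0.243, 0.196 and 0.357, and 0 genes of any kind were called on average of the tissues, with 23 of the solute carriers at an unadjusted p under 0.05. In the fit on the 4 colon arrays alone, Slco4a1, Slc10a6 and Slc34a2 were called, 1 higher and 2 lower with Nanog (0.541% and 1.08% of the 185), where 0.674% of all genes tested were higher and 0.813% lower. Marker lists whose arrays with and without Nanog did not overlap in either tissue were those of B and plasma cells (mean log2 intensity of 4 genes 5.72 and 5.39 in colon with Nanog against 8.72 and 7.61 without, and 6.58 and 5.37 in intestine with Nanog against 7.33 and 6.78 without) the mesothelium gene tested (4.46 and 4.40 against 7.35 and 7.55 in colon, and 4.41 and 4.39 against 7.83 and 6.09 in intestine, with Nanog first), the erythrocyte gene tested (11.06 and 10.58 against 10.53 and 8.62 in colon, and 11.10 and 11.99 against 9.42 and 8.44 in intestine) and 7 genes of the epithelium of both tissues (10.90 and 10.80 against 11.32 and 11.36 in colon, and 11.32 and 10.83 against 11.78 and 11.34 in intestine). Lists apart in colon but overlapping in intestine were those of 2 adipocyte genes (5.66 and 5.73 in colon with Nanog against 8.13 and 8.25 without), 3 T cell genes (4.75 and 4.79 against 6.76 and 5.45), the pancreatic acinar genes given above, the enterocyte genes (5.97 and 5.603 against 5.37 and 5.27) and those of colon epithelium (9.30 and 9.27 against 9.32 and 10.37). The genes of colon epithelium moved both ways in colon, with a median difference of −0.90 over the 8. Fxyd4 was at 12.60 and 12.36 with Nanog against 9.16 and 9.34 without, and Mettl7b at 8.07 and 7.20 against 10.51 and 10.07. Lists apart in intestine but overlapping in colon were those of 7 smooth muscle genes (10.01 and 9.95 in intestine with Nanog against 9.51 and 9.90 without) and 4 macrophage genes (8.06 and 7.75 against 6.73 and 7.62). Their part in the 3 differences was not tested.

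**Figure D4:**
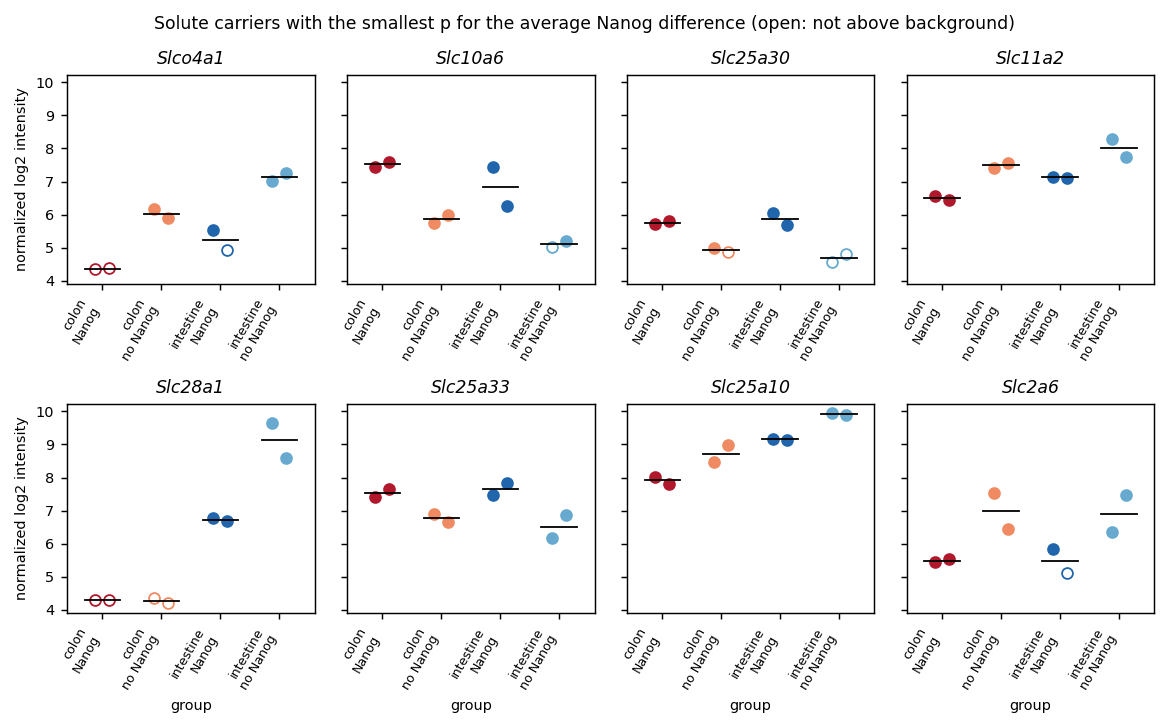
Normalized log2 intensity per array of the 3 solute carriers past the adjusted p threshold for the average Nanog difference (Slco4a1, Slc10a6, Slc25a30) and the 5 with the next smallest p; each point is 1 array, open where the detection p was 0.01 or more, and the bar is the mean of 2 arrays. In the top row the Nanog points lie below those without Nanog for Slco4a1 and Slc11a2 and above them for Slc10a6 and Slc25a30, in both tissues.

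The genes next in order missed the threshold, and their values are given without a call. Slc11a2 encodes DMT1, the brush border carrier of ferrous iron. It was seen on all arrays, at 6.57 and 6.43 in colon with Nanog against 7.41 and 7.56 in colon without Nanog, and 7.14 and 7.12 in intestine with Nanog against 8.28 and 7.75 in intestine without Nanog. The average difference was −0.94 ± 0.17 (adjusted p = 0.0657). Slc28a1, below background on every colon array, measured 6.77 and 6.69 in intestine with Nanog against 9.66 and 8.58 in intestine without Nanog, a difference of −2.39 ± 0.35 in that tissue (adjusted p = 0.0841), the second smallest p of the solute carriers there after Slco4a1. The pyrimidine nucleotide carrier Slc25a33 differed by 0.94 and Slc25a10 by −0.79 on average (adjusted p = 0.0953 for each), and the sugar carrier Slc2a6 by −1.47 (adjusted p = 0.113).

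The nutrient carriers Slc5a1, Slc2a2, Slc6a19 and Slc7a9 showed no difference with Nanog past the threshold in intestine. Slc5a1 differed by 0.46 ± 0.49, Slc2a2 by −0.04 ± 0.50, Slc6a19 by −0.09 ± 0.43 and Slc7a9 by −0.15 ± 0.51 on the log2 scale (adjusted p from 0.857 to 0.991). Slc2a5, which met the detection rule only through intestine without Nanog, measured 4.80 and 5.57 in intestine with Nanog, above background on 1 of 2 arrays, against 7.21 and 6.03 in intestine without Nanog. In colon Slc5a1 measured 10.16 and 9.13 with Nanog against 8.40 and 8.31 without, so that the groups did not overlap, with a difference of 1.29 ± 0.49 (adjusted p = 0.356). Slc34a2 in colon measured 5.23 and 5.69 with Nanog against 7.28 and 7.72 without, with a difference of −2.04 ± 1.67 (adjusted p = 0.672). That SE takes its spread from all 4 groups. Between replicates Slc34a2 differed by 0.47 and 0.43 in colon with and without Nanog, and by −3.58 and −5.06 in intestine with and without it. In the fit on the 4 colon arrays alone, given above, it was called.

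By substrate family, the average Nanog difference was centred near 0 in most. The median was −0.03 for the 30 amino acid carriers, 0.00 for the 27 mitochondrial carriers, −0.16 for the 18 sugar carriers, −0.10 for the 17 nucleotide sugar carriers and 0.04 for the 14 zinc carriers. All 4 carriers of sugar phosphates, Slc37a1 to Slc37a4, had positive values, from 0.10 for Slc37a1 to 0.91 for Slc37a4, the carrier that brings glucose 6-phosphate into the endoplasmic reticulum, and 0 passed the test, with 2 at an unadjusted p under 0.05. Slc37a2 met the detection rule only through colon with Nanog, and so had to be high in that group. With median scaling the median of all genes moved to −0.17, and values this small are relative to such a shift.

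**Figure D5:**
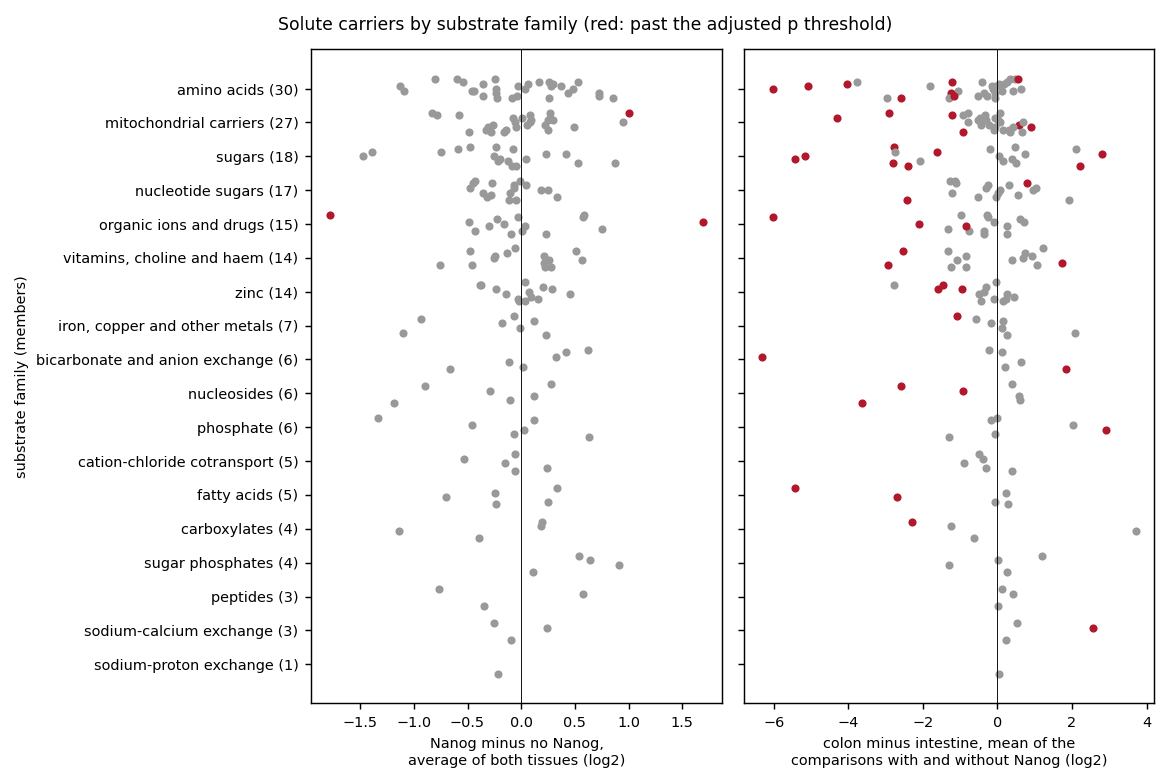
Average Nanog difference (left) and mean colon minus intestine difference (right), both in log2 units, for each of the 185 solute carriers by substrate family; each point is 1 gene, red where it passed the adjusted p threshold (on the right in either comparison). On the left all but 3 points are grey, and on the right red points lie mostly below 0, where genes below background in colon are placed by the lowest values the arrays give.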

How the data were processed

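RNA from 8 samples, 2 from each of the 4 groups, was hybridised to Illumina bead arrays. The authors deposited a probe intensity and a detection p-value per array, and normalized log2 values. BeadStudio 3.2, lumi and RMA appear in the submitters' processing notes, without settings. Intensities were background-corrected with limma 3.58.1 (R 4.3.3) by normexp, with the negative controls inferred from the detection p and an offset of 16. Quantile normalization followed, and values were put on the log2 scale. Of 25697 probes 12064 passed the detection rule, and each of 8607 genes was read from its brightest passing probe. All 8 arrays entered 1 fit with a mean per group. P-values come from moderated tests with Benjamini-Hochberg adjustment over all 8607 genes, and ± is the SE of a difference. A fold given as "at least" sets the mean of the brighter group against the lowest signal above background. It bounds the dimmer group alone and leaves out the spread between the arrays of the brighter group, of which 1 may lie below that fold. With 2 arrays a group, the number of arrays limits the precision.

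The members and all lists were chosen with earlier results of these data known. Genes were named from a panel of 44 textbook gut carriers, up to 10 called members per comparison and direction (the 5 with the smallest p where fewer than 5 passed), the extremes of each substrate family, and called partners. Not every gene so chosen is described. Slc2a9, Slc5a11, Slc5a4a, Slc6a6, Slc13a2, Slc16a9, Slc19a1, Slc19a2, Slc23a2, Slc25a3, Slc28a3, Slc29a3, Slc30a4, Slc39a5, Slc46a3, Slco2b1, Slc1a4, Slc5a6, Slc5a9, Slc35e2, Slc36a1, Slc41a3, Slc43a2, Slco3a1, Slc25a47 and Slc6a12 were named after their values were seen. Promoters are RefSeq windows on GRCm38.p6. Chip could not be used as a block, since the headers name none. The procedure was tested on simulated data.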

Additional observations from a re-analysis of the deposited data

How the results depend on the processing

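Of the counts of solute carriers called, that for Nanog in colon was 0, and 1 with the authors' deposited log2 values and 3 with only the arrays compared in the fit. The average Nanog count of 3 was 1 without background correction, with an offset of 50 and with median scaling (0 higher, 1 lower), and 0 with detection on all 8 arrays or without the second replicates of the Nanog groups. The count for colon against intestine without Nanog, 35, was 20 with no detection filter, 20 with detection on all 8 arrays, 13 with only the arrays compared and 13 with those replicates left out. That with Nanog, 29, was 19, 17 and 5 with no filter, with detection on all 8 arrays and with those replicates left out. With single arrays left out the ranges were 0 to 4 for Nanog in intestine, 0 in every case for Nanog in colon and for the difference of the Nanog effects, 0 to 7 for the average, 11 to 45 for colon against intestine without Nanog and 8 to 46 with Nanog. Fewer arrays in a fit leave fewer degrees of freedom, yet some counts rose with an array left out. The causes of these changes were not tested. The labels share replicate numbers without saying that they pair samples, and deviations of same-numbered samples correlated at 0.11 to 0.47 across genes. With the replicate block the counts were 0 in intestine, 0 in colon, 4 on average, 0 for the difference, 42 without Nanog and 30 with Nanog. The block ended the calls of Slc35a2, Slco2b1 and Slc30a4 with Nanog, and added Slc7a7, Slc27a4, Slc2a9 and Slc5a9 with Nanog, Slc6a4, Slc7a8, Slc25a35, Slc35e2, Slc22a5, Slc5a4a and Slc5a9 without Nanog and Slc1a4 on average. Median scaling moved the median of all genes to −0.38 for Nanog in intestine and 0.41 for the difference of the Nanog effects. Over the named members 0 values reversed, 294 lost and 66 gained a call, 481 moved and 9121 kept their side. The fit on only the arrays compared does not apply to the average or the difference, and the chip block was not run. Dim probes limit the folds given as bounds.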
